A study of Rattus norvegicus with 32 samples.

Results

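The 37 genes described here carry glucose and lactate into and out of the cell and break glucose down to pyruvate and lactate. They also form or control pyruvate dehydrogenase and build or break down glycogen. They were taken by name from a fixed list, which was chosen with earlier results of these data known. No measured value was used in the match. A probe was counted as a member when the array annotation of the deposited files gave it 1 of these gene names. This found all 37 genes, on 68 of the 45598 different probes of the array and among 34911 gene names. Each gene was counted by its brightest probe over the 32 arrays. All 37 were above background on every array of every group, so none was lost to the filter on dim probes.

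The data came from left ventricles of Wistar rats aged 9 to 12 weeks, from 1-colour Agilent arrays with 1 rat per array. In each sex, sham, CLP and CLP plus landiolol groups were compared. The sham group (5 males and 5 females) had no septic injury. The CLP group (5 males and 5 females) had cecal ligation and puncture, which causes sepsis from the gut, and received saline at 10 ml/kg/h from 1 h after surgery. The CLP plus landiolol group (6 males and 6 females) had the same surgery and received landiolol, a short-acting β1-adrenergic blocker, at 0.1 mg/kg/min from the same time. All groups shared buprenorphine at 0.05 mg/kg before surgery, similar infusion volumes without antibiotics, heart imaging at 18 h and a perfused-heart measurement outside the body before the heart was frozen at 20 h.

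Heart muscle takes up glucose through carriers of the Slc2a family, traps it as glucose 6-phosphate with hexokinase and passes it down glycolysis to pyruvate. Pyruvate then leaves as lactate or is used in the mitochondrion by pyruvate dehydrogenase, which pyruvate dehydrogenase kinases switch off. Glucose 6-phosphate can also be stored as glycogen by glycogen synthase and released by glycogen phosphorylase. The adult heart draws most of its energy from fatty acids and turns to glucose under stress, insulin or adrenergic drive.

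The promoters of 6 members are shown, chosen by their values in the data that follow. Hk2, Pgam2 and Gys1 passed a test, and Pfkm and Slc2a1 had groups that did not overlap in 1 sex. Ppp1r3c had the largest landiolol difference in males. Gpi, whose male groups also did not overlap, is not shown. Slc2a3 and Pgk1 also had groups without overlap, but no promoter of theirs was available. Letters known from regulators of these genes were searched for in the promoters. Each line gives the 250 bases before the transcription start, 5′ to 3′ on the strand of the gene, from the RefSeq promoters of GRCr8, with motif matches in capitals.
Hk2 (chr4:116841276-116841525, - strand): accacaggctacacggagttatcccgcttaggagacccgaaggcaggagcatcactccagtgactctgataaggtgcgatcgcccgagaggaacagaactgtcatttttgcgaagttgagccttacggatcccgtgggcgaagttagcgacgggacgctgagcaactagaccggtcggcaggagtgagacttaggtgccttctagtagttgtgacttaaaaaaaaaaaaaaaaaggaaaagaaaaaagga
Pgam2 (chr14:84897875-84898124, - strand): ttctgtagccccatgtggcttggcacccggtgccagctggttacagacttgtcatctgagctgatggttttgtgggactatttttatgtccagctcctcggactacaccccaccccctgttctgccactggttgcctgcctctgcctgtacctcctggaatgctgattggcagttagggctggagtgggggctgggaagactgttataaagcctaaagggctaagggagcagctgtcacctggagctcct
Gys1 (chr1:105051666-105051915, + strand): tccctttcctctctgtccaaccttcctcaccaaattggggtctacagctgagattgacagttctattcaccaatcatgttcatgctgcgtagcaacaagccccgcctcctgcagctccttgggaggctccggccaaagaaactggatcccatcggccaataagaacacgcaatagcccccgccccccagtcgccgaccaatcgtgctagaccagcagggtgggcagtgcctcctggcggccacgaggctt
Pfkm (chr7:131113849-131114098, + strand): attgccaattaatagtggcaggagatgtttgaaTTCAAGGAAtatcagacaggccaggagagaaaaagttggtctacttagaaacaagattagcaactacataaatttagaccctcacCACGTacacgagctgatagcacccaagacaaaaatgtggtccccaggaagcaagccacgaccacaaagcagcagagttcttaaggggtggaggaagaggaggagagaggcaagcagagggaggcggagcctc
Slc2a1 (chr5:138002272-138002521, + strand): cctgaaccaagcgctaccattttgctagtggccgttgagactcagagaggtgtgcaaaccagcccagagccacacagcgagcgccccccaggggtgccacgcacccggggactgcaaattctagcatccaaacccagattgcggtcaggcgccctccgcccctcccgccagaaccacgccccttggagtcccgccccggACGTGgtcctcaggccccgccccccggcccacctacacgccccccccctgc
Ppp1r3c (chr1:243878528-243878777, - strand): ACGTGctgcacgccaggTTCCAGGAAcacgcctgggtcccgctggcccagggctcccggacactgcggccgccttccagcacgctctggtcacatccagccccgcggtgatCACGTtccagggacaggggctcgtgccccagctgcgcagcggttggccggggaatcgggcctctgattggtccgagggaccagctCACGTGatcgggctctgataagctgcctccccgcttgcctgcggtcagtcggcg
The searched motifs, on both strands, were ACGTG (core of the hypoxia response element), CACGTG (an E box, which holds the first motif), TGACG (part of the cyclic AMP response element) and 2 STAT motifs, TTCCNGGAA and TTCNNNGAA, the first of which lies within the second. Of the 37 genes, 33 had a promoter in the table and 3 of these had several starts. ACGTG was found in 15 of 33 genes (45.5%) against 16.6% of all 33469 promoters of this length. CACGTG was found in 5 of 33 (15.2%) against 5.59%, and TGACG in 7 of 33 (21.2%) against 18.2%. TTCNNNGAA was found in 4 of 33 (12.1%) against 7.67%, and TTCCNGGAA in 1 of 33 (3.03%), Ppp1r3c, against 1.07%. A gene with several starts had more than 1 window in which to match. Hk2, Pgam2 and Gys1 held none of these letters in the window shown, Slc2a1 held ACGTG, Pfkm held ACGTG and TTCNNNGAA, and Ppp1r3c held all but TGACG. These matches describe the letters only.

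Between 59.5% and 73.5% of the 58717 spots that were not controls were well above background on the male arrays, and between 61.6% and 65.9% on the female arrays. The number of arrays limits the precision. The 12 heart muscle markers were detected in every group, with a summed level between 21.59 and 21.86 on the log2 scale. The summed levels of neutrophil and macrophage markers were higher in CLP than in sham. The summed level of 10 neutrophil markers ran from 6.15 to 6.70 in male sham and from 7.60 to 9.79 in male CLP, and that of 10 macrophage markers from 14.95 to 15.46 and from 15.78 to 16.27. In females the neutrophil sums ran from 6.42 to 7.03 in sham and from 7.76 to 8.96 in CLP, and the macrophage sums from 15.18 to 15.43 and from 15.62 to 16.21. With landiolol the neutrophil sums ran from 8.55 to 9.87 in males and from 7.89 to 10.19 in females. Most neutrophil markers were dim: 0 of 10 in male sham, 1 in female sham and 2 in CLP of either sex were above background on at least 80% of arrays. The sums of 8 lymphocyte markers ran from 9.71 to 10.24 in male sham and from 9.13 to 9.54 in male CLP. In females they ran from 9.29 to 10.18 in sham and from 8.89 to 9.62 in CLP. Of 7 fibroblast markers, Col1a1, Col1a2, Col3a1 and Lum were called lower in male CLP and 0 in female CLP, and the summed level ran from 16.26 to 16.95 in male sham, from 15.55 to 16.47 in male CLP, from 15.61 to 16.16 in female sham and from 15.33 to 16.32 in female CLP. The sum of 5 red cell markers was 16.81 in female CLP replicate 4 and ran from 10.77 to 13.56 in the other female CLP arrays and from 10.98 to 11.40 in female sham, with 0 markers called. The part of these cell types in the levels of the members was not tested. In these bulk samples, fewer cells of a type and less RNA per cell cannot be told apart. Males and females were on different slides, 2 slides for each sex, so levels were not set against each other between the sexes.

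Sepsis was first set against sham. In males, 2 of the 37 genes passed a false discovery rate (FDR, the expected share of false calls) of 1% in limma: Pgam2, the muscle form of phosphoglycerate mutase, and Gys1, the muscle form of glycogen synthase. Both fell, by 0.85 and 0.59 on the log2 scale, 1.80-fold and 1.51-fold. This was 5.41% of the members, against 8.22% of all genes called in either direction and 4.27% called lower. In females 0 of 37 passed, against 3.78% of all genes. Of the female members, 10 had an unadjusted p under 0.05 in limma, against 23.4% of all genes, and 4 were called by significance analysis of microarrays (SAM), the permutation method of the study, against 5.98% of all genes.

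The signs leaned to lower levels in CLP. In males, 29 of 37 members had a negative log2 difference with a median of -0.15, and in females 27 of 37 with a median of -0.20, beside medians over all genes of -0.00 and -0.02. At an FDR of 5%, 7 male members were called (Gys1, Hk2, Pfkm, Pgam2, Pgk1, Ppp1r3c and Slc2a3) against 16.4% of all genes. At the same level 6 female members were called (Hk2, Pfkfb3, Pgam2, Pgk1, Slc2a1 and Slc2a3) against 9.44%. In males, 5 members had groups that did not overlap, all lower in CLP (Pgam2, Gys1, Pfkm, Pgk1 and Gpi), against 6.69% of all genes. In females 2 were higher without overlap (Slc2a1 and Slc2a3) against 4.03%, and 2 lower (Hk2 and Pgk1) against 4.58%.

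**Figure D1:**
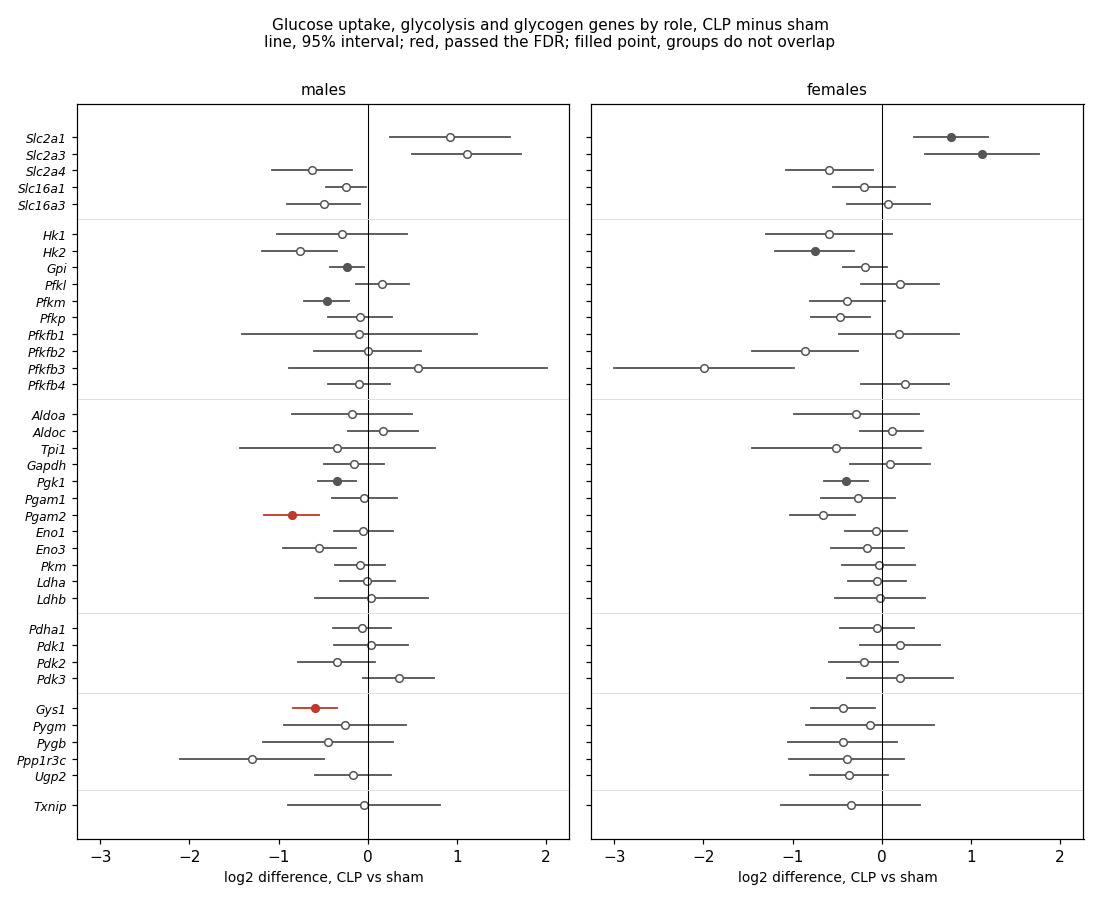
Log2 difference between CLP and sham for each of the 37 genes, males left and females right, ordered by role. Points are estimates with 5 arrays in each group, lines are 95% intervals, red marks an FDR of 1% and filled points mark groups that did not overlap. Pgam2 and Gys1 are red in males and no gene is red in females, where Slc2a1 and Slc2a3 lie to the right of 0 with filled points.

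Among the carriers, the insulin-independent glucose carriers Slc2a1 and Slc2a3 and the insulin-responsive carrier Slc2a4 lay on opposite sides of 0. The Slc2a1 probe lies at chr5:139718779-139718838 (rn4, + strand). In the 5 male shams, Slc2a1 was at 10.52, 11.67, 10.98, 11.12 and 11.19 on the log2 scale, and in male CLP at 11.06, 12.08, 11.94, 12.94 and 12.08. In the 5 female shams it was at 11.62, 11.10, 11.30, 11.41 and 11.33, and in female CLP at 12.27, 12.17, 12.07, 12.05 and 12.05. Every female CLP array was above every female sham array, while the male groups overlapped through 1 low CLP array. The difference was 0.77 ± 0.20 (SE) in females (1.71-fold, adjusted p = 0.021) and 0.93 ± 0.32 in males (1.90-fold, adjusted p = 0.0586), short of the 1% level in both.

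Slc2a3, a high-affinity glucose carrier of neurons and white blood cells, was read by a probe at chr4:159208052-159208111 (rn4, - strand) that carries this name only in the male files. Its male sham levels were 10.76, 10.91, 10.52, 10.64 and 11.23, and its male CLP levels 11.21, 11.56, 12.22, 12.45 and 12.15. Female sham levels were 9.55, 10.52, 10.55, 10.75 and 10.47, and female CLP levels 11.60, 10.94, 11.35, 11.91 and 11.63. The female groups did not overlap, and in males 1 CLP array lay just below the highest sham array. The differences were 1.11 ± 0.29 in males (2.15-fold, adjusted p = 0.0159) and 1.12 ± 0.30 in females (2.18-fold, adjusted p = 0.0284), with the second probe at 0.86 (adjusted p = 0.138) and 0.998 (adjusted p = 0.258). In the same comparison, Adgre1, Cd68 and Lyz2, 3 of 10 macrophage markers, were called higher in CLP in both sexes. Of the neutrophil markers, 4 (Elane, Mmp8, Mpo and Ngp) were above background on no male CLP array. The summed level of 8 lymphocyte markers had a median of 10.02 in male sham and 9.39 in male CLP. In females the medians were 9.81 and 9.41. The part of these cell types in the Slc2a1 and Slc2a3 levels was not tested.

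Slc2a4, the carrier that insulin moves to the muscle surface, had differences of -0.63 ± 0.21 in males (adjusted p = 0.0534) and -0.59 in females (adjusted p = 0.132). The lactate carriers Slc16a1 and Slc16a3 were at -0.24 and -0.50 in males and at -0.20 and 0.07 in females. None of the 5 carriers passed the test in either sex.

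**Figure D2:**
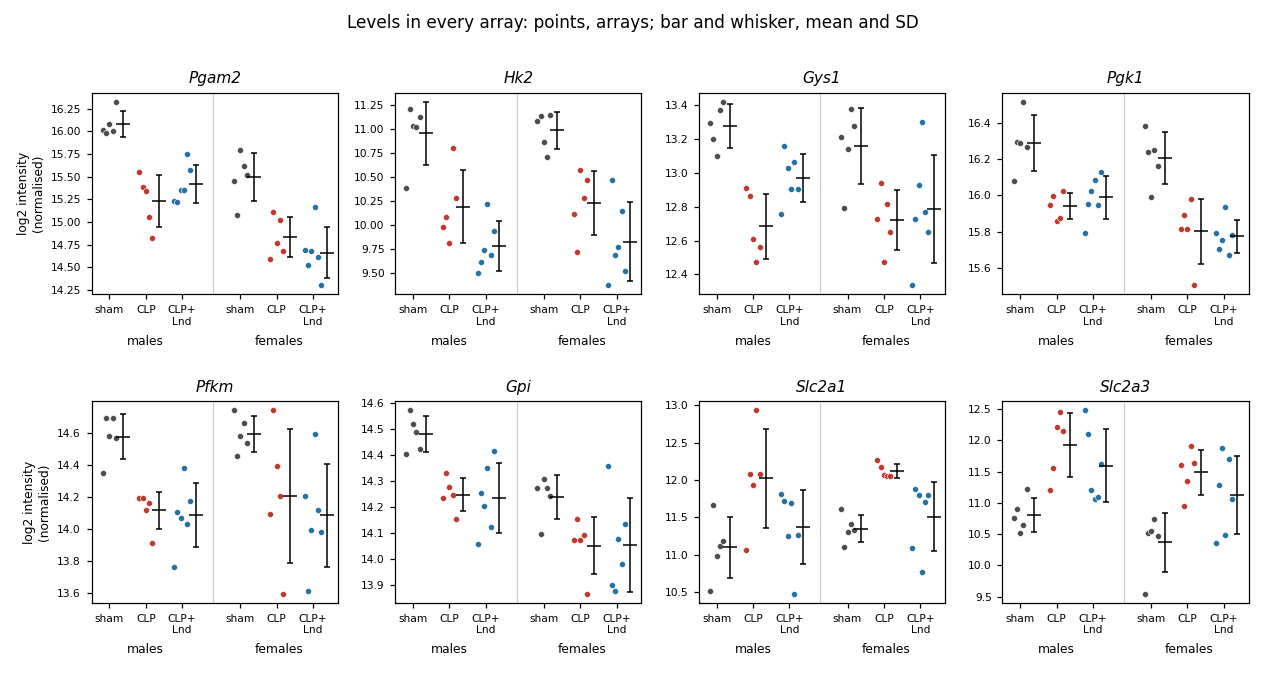
Normalised log2 intensity of 8 members in every array, each panel on its own axis, with males left and females right. Points are arrays, bars and whiskers are the mean and SD, and CLP+Lnd stands for CLP plus landiolol. The means of Pgam2, Hk2 and Pgk1 are lower in CLP and in CLP plus landiolol than in sham, while those of Slc2a1 and Slc2a3 are higher in CLP. Some of these groups overlap.

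The next 10 members trap glucose in the cell and commit it to glycolysis, and 0 of 10 passed in either sex. Hk2, the insulin-responsive hexokinase of muscle, was read by a probe at chr4:116924279-116924338 (rn4, - strand). In male shams it was at 10.39, 11.21, 11.03, 11.03 and 11.13, and in male CLP at 9.98, 10.09, 9.82, 10.81 and 10.28. In female shams it was at 11.08, 11.14, 10.86, 10.72 and 11.14, and in female CLP at 10.12, 9.72, 10.58, 10.28 and 10.47. The female groups did not overlap, while in males 1 low sham array lay among the CLP arrays. The differences, -0.76 ± 0.20 in males (adjusted p = 0.0154) and -0.75 ± 0.21 in females (adjusted p = 0.0318), passed 5% and not 1%. Hk1, the widely expressed hexokinase, was at -0.29 in males and -0.59 in females, with adjusted p of 0.648 and 0.314.

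Pfkm, the muscle form of phosphofructokinase, had male sham levels of 14.35, 14.69, 14.58, 14.69 and 14.57 and male CLP levels of 14.19, 14.19, 14.12, 14.16 and 13.91. Its female sham levels were 14.74, 14.45, 14.58, 14.66 and 14.53, and its female CLP levels 14.10, 14.74, 14.39, 14.21 and 13.59. The male groups did not overlap and the female groups did. The difference was -0.46 ± 0.12 in males (adjusted p = 0.0133) and -0.39 in females (adjusted p = 0.262). The liver form Pfkl and the platelet form Pfkp differed from sham by 0.16 and -0.09 in males and by 0.20 and -0.47 in females.

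Gpi, which turns glucose 6-phosphate into fructose 6-phosphate, had the narrowest interval of the 37 genes in male CLP against sham. Male sham arrays read 14.41, 14.57, 14.52, 14.49 and 14.43, and male CLP arrays 14.24, 14.33, 14.28, 14.25 and 14.16. The groups did not overlap, yet the difference of -0.23 ± 0.09 had an adjusted p of 0.0948. In females, sham arrays read 14.28, 14.10, 14.31, 14.28 and 14.24 and CLP arrays 14.07, 14.16, 14.08, 14.09 and 13.87, with a difference of -0.19 (adjusted p = 0.367).

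Pfkfb1 to Pfkfb4 make and remove fructose 2,6-bisphosphate, the activator of phosphofructokinase. Pfkfb3 had the widest interval of all members in males, and its male sham arrays stood apart by slide. Male sham arrays read 13.88 and 13.43 on 1 slide and 10.82, 10.58 and 11.74 on the other. Male CLP arrays read 11.89, 11.41, 12.43, 13.61 and 13.93. The male difference was 0.57 ± 0.68 over both slides, with -1.74 on the first slide and 2.73 on the second, so its direction turned with the slide. Female sham arrays read 14.19, 14.69, 14.19, 12.61 and 14.91 and female CLP arrays 12.14, 11.47, 13.00, 10.90 and 13.12. These groups overlapped through 1 low sham array, and the difference was -1.99 ± 0.48 (3.98-fold, adjusted p = 0.0156), with -3.24 and -0.90 within the slides. The second Pfkfb3 probe gave -0.999 in females (adjusted p = 0.105) and 0.10 in males. Pfkfb2, the heart form, was at -0.86 in females (adjusted p = 0.0687) and -0.00 in males, and Pfkfb1 and Pfkfb4 lay between -0.10 and 0.26.

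Among the 12 genes from aldolase to lactate dehydrogenase, 1 passed in males and 0 in females. Pgam2 was read by a probe at chr14:86466146-86466205 (rn4, - strand). Male sham arrays read 16.02, 15.98, 16.09, 16.01 and 16.33, and male CLP arrays 15.55, 15.38, 15.35, 15.06 and 14.83. Female sham arrays read 15.46, 15.08, 15.79, 15.62 and 15.52, and female CLP arrays 14.60, 15.11, 14.76, 15.02 and 14.68. In males every CLP array was below every sham array by a clear gap, and in females 1 sham array lay within the CLP arrays. Pgam2 fell by 0.85 ± 0.15 in male CLP (adjusted p = 0.00102), with -0.57 and -1.20 within the slides. In females the difference was -0.66 ± 0.17 (adjusted p = 0.0237). Its counterpart Pgam1, the form of most other tissues, was at -0.04 in males and -0.27 in females.

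Pgk1 is the first ATP-making enzyme of glycolysis. Male sham arrays read 16.08, 16.29, 16.29, 16.51 and 16.26, and male CLP arrays 15.95, 15.998, 15.86, 15.88 and 16.02. Female sham arrays read 16.38, 16.24, 15.99, 16.25 and 16.16, and female CLP arrays 15.82, 15.89, 15.82, 15.98 and 15.50. The groups did not overlap in either sex. The differences were -0.35 ± 0.10 in males (adjusted p = 0.0256) and -0.40 ± 0.12 in females (adjusted p = 0.042), short of 1%.

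The muscle enolase Eno3 was at -0.54 in males (adjusted p = 0.0664) and -0.16 in females, and the general form Eno1 at -0.05 and -0.06. Ldha, which makes lactate from pyruvate, differed from sham by -0.00 in males and -0.05 in females, and Ldhb by 0.04 and -0.02. Gapdh, often taken as a stable reference, was at -0.15 and 0.09 by its brightest probe. Aldoa, Aldoc, Tpi1 and Pkm lay between -0.51 and 0.17 with none past the test.

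The pyruvate dehydrogenase genes had differences between -0.35 and 0.35. Pdha1, the catalytic subunit, was at -0.07 in males and -0.05 in females. Of its kinases, Pdk1 was at 0.04 and 0.21, Pdk2, the widespread form, at -0.35 and -0.20, and Pdk3 at 0.35 and 0.20. The other 3 Pdk1 probes ran from -0.01 to 0.58 in males and from 0.18 to 0.52 in females, none past the test. None of the 4 passed, and none had groups that did not overlap.

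All 5 glycogen genes had negative differences in both sexes, with a median of -0.45 in males and -0.39 in females, and 1 of 5 passed in males. Gys1, the synthase, was read by a probe at chr1:95928091-95928150 (rn4, + strand). Male sham arrays read 13.29, 13.20, 13.10, 13.37 and 13.42, and male CLP arrays 12.91, 12.86, 12.61, 12.47 and 12.56. Female sham arrays read 13.21, 12.79, 13.14, 13.37 and 13.28, and female CLP arrays 12.73, 12.94, 12.47, 12.81 and 12.65. The male groups were apart, while 1 low female sham array lay among the female CLP arrays. Gys1 fell by 0.59 ± 0.11 in male CLP (adjusted p = 0.00245), with -0.45 and -0.78 within the slides. The female difference was -0.44 (adjusted p = 0.122).

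Ppp1r3c brings protein phosphatase 1 to glycogen, which favours the active synthase. Male sham arrays read 13.85, 14.90, 14.63, 13.53 and 14.87, and male CLP arrays 14.23, 13.26, 12.85, 12.32 and 12.62. Female sham arrays read 13.97, 13.94, 13.91, 14.84 and 13.66, and female CLP arrays 13.72, 13.55, 13.24, 14.39 and 13.45. The groups overlapped in both sexes, in males through 1 high CLP array. The male difference was the largest among the glycogen genes, -1.30 ± 0.38 (2.46-fold, adjusted p = 0.0286), with -1.01 (adjusted p = 0.0483) at the second probe. The female difference was -0.39 (adjusted p = 0.492). The phosphorylases Pygm and Pygb were at -0.26 and -0.45 in males and -0.13 and -0.44 in females, and Ugp2, which makes the UDP-glucose for the synthase, at -0.17 and -0.37.

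Txnip, a brake on glucose uptake that itself follows cell glucose, was at -0.04 in males and -0.35 in females, with neither past the test. Without male sham replicate 1 or without male CLP replicate 1, the count in males was 4 in place of 2, against 7.62% and 9.55% of all genes. At a 1% FDR in a fit of sham and CLP alone, Gys1 had an adjusted p of 0.012 and was no longer called.

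The 8 Gapdh probes did not vary alike over the arrays. The probe farthest upstream, at chr4:161283737-161283796 (rn4, - strand), ran from 11.85 to 14.17 in males and from 12.28 to 14.54 in females. The probe at chr4:161282329-161282388, nearer the 3′ end, ran from 17.13 to 17.52 and from 16.82 to 17.33, while the probe nearest that end, at chr4:161282185-161282218, ran from 13.99 to 15.79 in males. The upstream probe minus the second was between -5.34 and -4.82 on 5 male arrays (sham replicate 1, CLP replicate 1 and CLP plus landiolol replicates 1, 3 and 5) and between -4.14 and -3.08 on the other male arrays. The same 5 arrays were the lowest of the male arrays for Tpi1, Aldoa, Pygb and Pkm. In females the difference ran from -4.65, in CLP replicate 5, to -2.54.

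With this Gapdh difference as a term, a choice made once the data had been seen, 5 members were called in male CLP against sham (Gys1, Hk2, Pfkm, Pgam2 and Pgk1), against 16% of all genes, and 2 in female CLP (Pfkfb3 and Pgk1), against 6.95%. Without the 5 male arrays, also chosen after seeing the data, 6 members were called in males (Gys1, Pfkm, Pgam2, Ppp1r3c, Slc16a3 and Slc2a3), against 10.7%. Pgam2 and Gys1 were called in male CLP under both, with Pgam2 at -0.86 and -0.95 and Gys1 at -0.59 and -0.64.

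**Figure D3:**
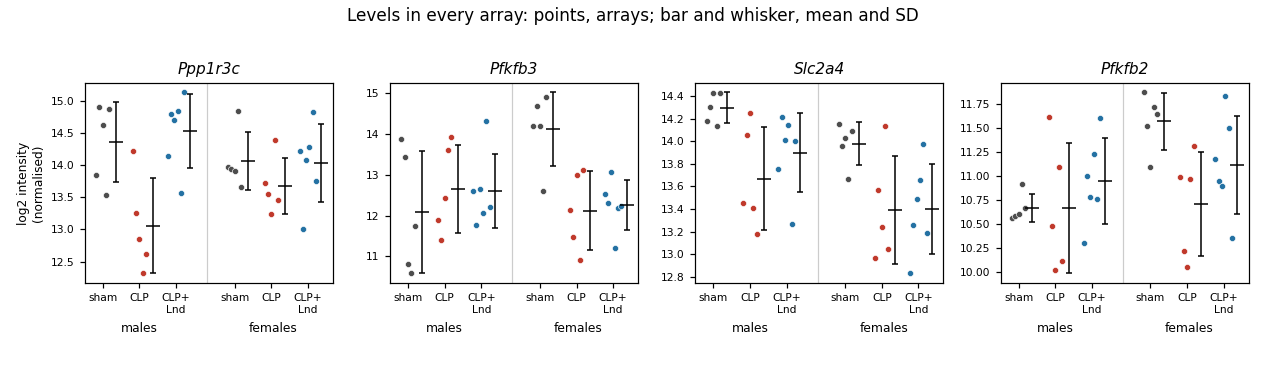
Normalised log2 intensity of Ppp1r3c, Pfkfb3, Slc2a4 and Pfkfb2 in every array, each panel on its own axis. Points are arrays, bars and whiskers are the mean and SD, and CLP+Lnd stands for CLP plus landiolol. Ppp1r3c in males is low in CLP and near the sham level with landiolol, and Pfkfb3 spreads over several log2 units within a group.

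Landiolol was next set against saline in rats with CLP, at an FDR of 5%. This comparison and the first share the CLP arrays. A fall in the first and a rise in this one therefore do not support each other. Members of the list passed in neither sex: 0 of 37 in males, against 1.62% of all genes, and 0 of 37 in females, against 0.0873%. In males 8 had an unadjusted p under 0.05 in limma, against 15.1% of all genes, and SAM called 1, Ppp1r3c, against 3.58%. In females 1 did, Slc2a1, against 9.44%, and SAM called 0, against 0.18%. The 95% interval lay within 1 log2 unit of 0 on both sides for 31 male and 33 female members.

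**Figure D4:**
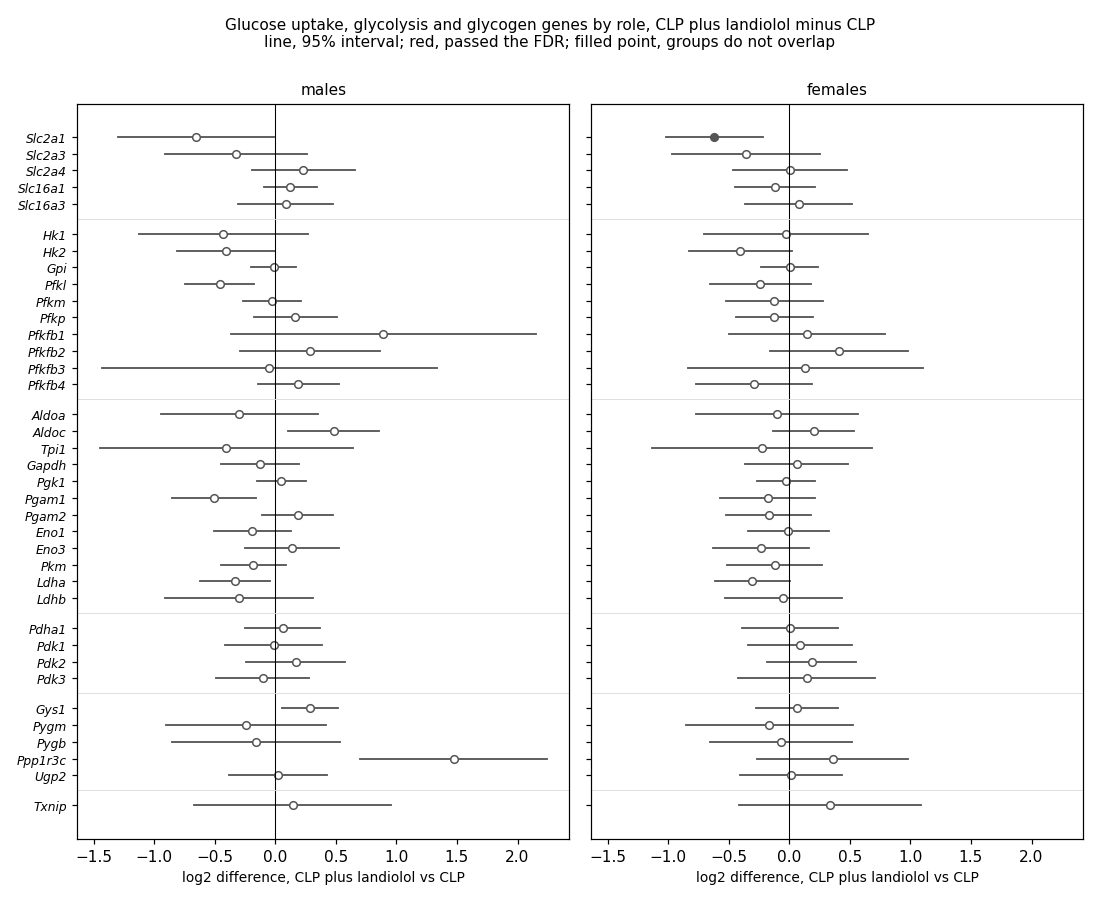
Log2 difference between CLP plus landiolol and CLP for each of the 37 genes, males left and females right, ordered by role. Points are estimates with 6 and 5 arrays, lines are 95% intervals and filled points mark groups that did not overlap. No gene is red, Ppp1r3c lies farthest from 0 in males and Slc2a1 has the only filled point, in females.

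Ppp1r3c had the largest landiolol difference in males. Its male CLP plus landiolol levels ran from 13.56 to 15.13 with a median of 14.75, beside male CLP levels from 12.32 to 14.23. Of the 6 landiolol arrays, 4 were above all CLP arrays, and 1 CLP array lay above the other 2. The difference was 1.47 ± 0.36 (2.78-fold, 95% interval 0.70 to 2.24, adjusted p = 0.0558), with 1.098 and 2.04 within the slides and 1.14 (adjusted p = 0.0903) at the second probe. With the Gapdh difference as a term it was 1.503 (adjusted p = 0.051), with 0 members called against 3.28% of all genes in males and 0 against 0.252% in females. Without the 5 male arrays named above it was 2.16 (adjusted p = 0.0132), the only member called, against 2.05% of all genes. It also passed 5% without male CLP replicate 1 or without male CLP plus landiolol replicate 5. In females the landiolol levels ran from 13.01 to 14.83 with a median of 14.15 and the difference was 0.36 (adjusted p = 0.76).

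Slc2a1 had negative landiolol differences of a like size in both sexes, neither past the test. Its female CLP plus landiolol levels ran from 10.77 to 11.88 with a median of 11.75, all below the 5 female CLP arrays, and this was the only member without overlap, against 0.442% of all genes lower. The difference was -0.62 ± 0.19 in females (adjusted p = 0.245), with -0.58 and -0.65 within the slides. In males the levels ran from 10.48 to 11.82 with a median of 11.47. The male difference was -0.65 (adjusted p = 0.332), with -0.10 and -1.37 within the slides. All female landiolol arrays were in the second row of their slides, while the female CLP arrays lay in both rows. Row and treatment were thus partly mixed in the female comparison. With the row as a term, 0.00514% of all genes were called in it, beside 0.0873% without the term.

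The other male members with an unadjusted p under 0.05 were Pfkl at -0.46, Pgam1 at -0.51, Ldha at -0.33 and Hk2 at -0.41, and on the higher side Aldoc, the brain form of aldolase, at 0.48 and Gys1 at 0.29. Their adjusted p ran from 0.111 for Pfkl to 0.333 for Hk2. Gys1 levels in male CLP plus landiolol ran from 12.76 to 13.15 with a median of 12.97, between the sham and the CLP arrays and overlapping both.

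CLP plus landiolol was last set against sham, at an FDR of 1%. Hk2 and Pgam2 fell in both sexes, 2 of 37 members or 5.41%. Of all genes, 4.39% were called in males (1.88% lower) and 5.49% in females (2.37% lower). Groups did not overlap for Hk2 and Pgam2 in males, against 3.81% of all genes lower, and for Hk2 and Pgk1 in females, against 4.43%. At an FDR of 5% the male calls were Aldoc, Hk2, Pfkm, Pgam1 and Pgam2, against 10.2% of all genes, and the female calls Hk2, Pfkfb3, Pfkp, Pgam2 and Pgk1, against 13.2%. Since this comparison and the first share the sham arrays, their values stand side by side and do not support each other.

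**Figure D5:**
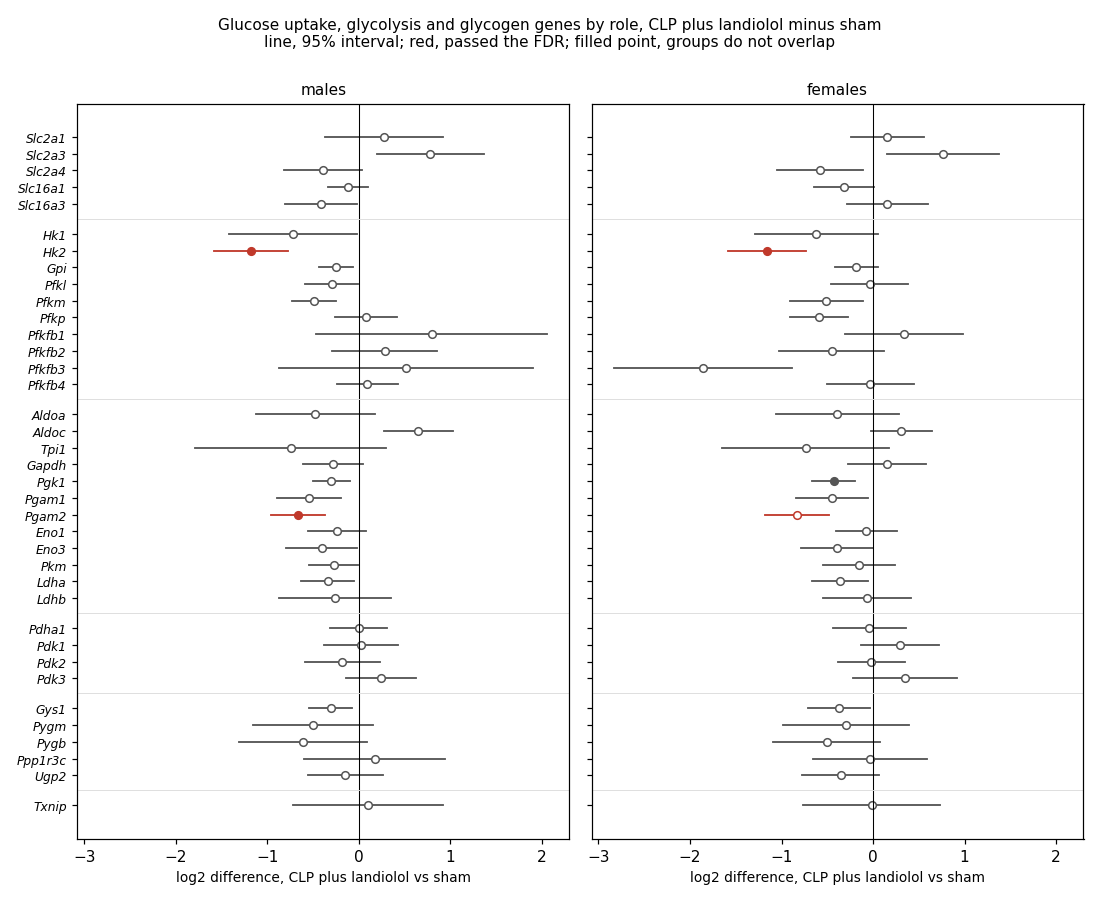
Log2 difference between CLP plus landiolol and sham for each of the 37 genes, males left and females right, ordered by role. Points are estimates with 6 and 5 arrays, lines are 95% intervals, red marks an FDR of 1% and filled points mark groups that did not overlap. Hk2 and Pgam2 are red in both sexes, to the left of 0.

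Hk2 levels in male CLP plus landiolol ran from 9.50 to 10.22 with a median of 9.72, all below the lowest male sham array. In females they ran from 9.38 to 10.47 with a median of 9.73, again all below sham. Hk2 fell by 1.17 ± 0.19 in males (2.26-fold, adjusted p = 0.00112) and by 1.16 ± 0.20 in females (2.23-fold, adjusted p = 0.00145). Within the slides the differences were -1.18 and -1.11 in males and -1.29 and -1.002 in females. At the second probe Hk2 fell by 1.12 in females (adjusted p = 0.00145), and the male value was -1.07 (adjusted p = 0.018).

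Pgam2 levels ran from 15.23 to 15.76 with a median of 15.36 in male CLP plus landiolol, all below male sham. In females they ran from 14.30 to 15.17 with a median of 14.64, and the highest landiolol array lay above the lowest sham array. Pgam2 fell by 0.67 in males (1.59-fold, adjusted p = 0.00637) and by 0.83 ± 0.16 in females (1.78-fold, adjusted p = 0.00373). The male Pgam2 call was lost under 12 of its alternatives, with adjusted p from 0.011 to 0.023.

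With the Gapdh difference as a term, Hk2, Pfkm and Pgam2 were called in males, against 7.35% of all genes, and Hk2, Pfkfb3, Pgam2 and Pgk1 in females, against 9.57%. Without the 5 male arrays low for the upstream Gapdh probe 0 members were called in males, against 1.92% of all genes, with Hk2 at -1.17 (adjusted p = 0.0116) and Pgam2 at -0.72 (adjusted p = 0.0228).

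In females all sham arrays were in the first row of their slides and all landiolol arrays in the second. From these arrays alone, row and treatment cannot be told apart. A row term rests on the female CLP arrays, which lay in both rows. With the row as a term, the Hk2 difference was -1.39 (adjusted p = 0.153) and the Pgam2 difference -0.86 (adjusted p = 0.337), and neither was called. Of all genes, 0.0873% were called with this term, beside 5.49% without it. For female CLP against sham the shares were 1.4% with the row term and 3.78% without it. The female Pgam2 call was also lost without female sham replicate 3, 4 or 5 (adjusted p from 0.011 to 0.012).

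The remaining members with values near the call shared no single step. Pgk1 ran from 15.79 to 16.13 in male CLP plus landiolol and from 15.67 to 15.93 in females, with differences from sham of -0.30 (adjusted p = 0.0583) and -0.43 ± 0.11 (adjusted p = 0.0194). Pfkm ran from 13.76 to 14.38 in males and from 13.61 to 14.59 in females, with differences of -0.49 (adjusted p = 0.0113) and -0.51 (adjusted p = 0.0923). Aldoc was at 0.65 in males (adjusted p = 0.0296) and 0.31 in females. Slc2a3 ran from 11.06 to 12.48 in males and from 10.36 to 11.88 in females, with differences of 0.78 (adjusted p = 0.0887) and 0.76 (adjusted p = 0.0983). Slc2a4 was at -0.40 and -0.58, and Pfkfb3 in females at -1.86 ± 0.46 (adjusted p = 0.0146), beside 0.52 in males.

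Whether a difference itself differed between the sexes was tested with an interaction term over all 32 arrays at an FDR of 5%. No member passed in any of the 3 comparisons, and 0 genes of all 20200 did (0% each). Unadjusted p under 0.05 in limma was reached for sepsis by 2 members, Pfkfb3 and Pfkfb2, against 3.72% of all genes. For landiolol against CLP it was reached by Ppp1r3c, against 4.85%, and for landiolol against sham by Pfkfb3 and Pfkp, against 6.64%. The female minus male value for Pfkfb3 in sepsis was -2.54 ± 0.87 (unadjusted p = 0.00651, adjusted p = 0.9999), and for Ppp1r3c with landiolol -1.15 (unadjusted p = 0.0241, adjusted p = 0.969). The direction of Pfkfb3 turned between the male slides, as given above.

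Other genes of the same pathways were read from lists of 102 genes, of which 91 were tested in each sex: further carriers, enzymes, pyruvate dehydrogenase partners, glycogen genes, side branches and transcription factors. In male CLP against sham 1 was called higher and 6 lower (7.69%, against 8.22% of all genes), and in female CLP 1 higher and 4 lower (5.49%, against 3.78%). Against CLP, landiolol gave 2 calls in males (2.2%, against 1.62% of all genes) and 0 in females (against 0.0873%). Against sham it gave 2 higher and 4 lower in males (6.59%, against 4.39%), and 2 higher and 5 lower in females (7.69%, against 5.49%). None of the 20 further glycogen genes tested was called in any comparison.

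In both sexes Tigar, which lowers fructose 2,6-bisphosphate, and Gpd2, the mitochondrial glycerol phosphate dehydrogenase, fell with CLP. Tigar fell by 1.07 in males (adjusted p = 7.94e-05) and by 0.88 in females (adjusted p = 0.000889), and Gpd2 by 1.08 (adjusted p = 2.15e-05) and 1.28 (adjusted p = 0.00342). H6pd, which starts the pentose phosphate steps of the endoplasmic reticulum, rose by 1.28 in males (adjusted p = 0.000673) and 1.03 in females (adjusted p = 0.00146). Slc16a7, a high-affinity pyruvate and lactate carrier, fell by 1.19 in males (adjusted p = 0.000563) and was at -0.70 in females (adjusted p = 0.249). Ppargc1a, a coactivator of mitochondrial genes, fell by 1.54 in females (adjusted p = 0.00304) and was at -1.03 in males (adjusted p = 0.163). The groups of these calls did not overlap.

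With landiolol against sham, Gckr rose by 1.81 in males (adjusted p = 0.000828) and by 1.80 in females (adjusted p = 0.00416). Tigar fell by 0.94 and 0.97, Gpd2 by 0.90 in males, H6pd rose by 1.004 in females, and Esrra, a nuclear receptor of energy genes, fell by 0.84 in females. In male CLP plus landiolol against CLP, Gckr rose by 1.38 (adjusted p = 0.0251). Its groups overlapped in that comparison, and it was named there after its values were seen.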

How the data were processed

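Left ventricle RNA of 32 rats was hybridised to 1-colour Agilent rat arrays, 16 per sex on 2 slides. The deposited scanner files, made by the authors with Agilent Feature Extraction 10.5, hold background-subtracted and not normalised intensity per spot, with probe coordinates of rn4. Per the file headers, the 8 arrays of the first female slide carry another extraction protocol than the other 24 arrays, so slide and protocol cannot be told apart within females; the version is that of the submitters' notes. The deposited table of log2 values, which the authors made by quantile normalisation within a sex and a filter on dim probes, holds 25878 probes in males and 25406 in females; it was used as an alternative only, and its centring was not stated. Exon and UTR positions of the probes were not analysed here.

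Outlier spots were left out, replicate spots averaged (213 probe values were then missing) and log2 values quantile-normalised over the 16 arrays of a sex. Probes well above background on 80% of the arrays of at least 1 group were kept. Differences were fitted in R 4.3.3 with limma 3.58.1 on the 3 groups of a sex, with no covariate and no trend, and adjusted by the Benjamini-Hochberg method over all probes kept, with an FDR of 1% against sham and 5% for landiolol against CLP and for differences between the sexes, which were fitted on all 32 arrays normalised together. All tests were two-sided. The p-values set each difference against the spread between rats within groups. This spread was pooled over the groups fitted and adjusted with that of all probes kept. Slide and row were not terms of the main fits, so their variation within groups is part of it. Scripts were tested on simulated data.

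Shares over all genes count each gene once, by its brightest probe. Groups came from the labels, and replicate numbers follow the order of deposit and pair nothing. Values in every array were given for members called or with groups that did not overlap, and for the most variable members. Of other pathway genes, at most the 3 largest rises and 3 largest falls per comparison were named, among calls without overlap; some genes that this rule would name are not reported here, though the counts include them. The genes, the lists and the tests were chosen with earlier results of these data known. Alternatives were the other FDR level, 75th percentile scaling, normexp background correction with an offset of 50, no filter, other probe rules, slide, row and sample-code terms, fits of the compared groups alone, the authors' table, SAM with 100 permutations, and leaving out each array. After seeing the data, the difference between 2 Gapdh probes as a term and a fit without 5 male arrays low for the upstream probe were added.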

Additional observations from a re-analysis of the deposited data

Results flagged for a closer look

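In 12 of 222 groups of arrays, 1 array lay far from the others of its group for a member (Dixon's test at 95%); chance alone flags about 1 in 20 groups. Among the carriers, female sham replicate 1 was lowest for Slc2a3 at 9.55, with the next array at 10.47. Male sham replicate 1 was lowest for Hk2 at 10.39, beside 11.03 for the next. Female CLP replicate 5 was lowest for Gpi at 13.87, and male CLP replicate 5 for Pfkm at 13.91. Male sham replicate 5 was lowest for Pfkp at 11.68, and male CLP plus landiolol replicate 5 was highest for Pfkfb3 at 14.32, with the next array at 12.65. Male CLP replicate 1 was lowest for 3 members, Aldoa at 14.44, Tpi1 at 10.71 and Pdk3 at 5.56. Female sham replicate 2 was lowest for Pkm at 13.80, male sham replicate 2 was highest for Pdk1 at 12.66, and female sham replicate 4 was highest for Ppp1r3c at 14.84, with the next array at 13.97.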

How the results depend on the processing

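The counts of called members kept to within 1.5 times of the reported count in 201 of 242 alternative values. A count of 0 beside a reported count of 0 was taken as kept. This was so for every alternative of the differences between the sexes, so the share says little about stability. At the exchanged FDR level, 7 male and 6 female members were called for CLP against sham (16.4% and 9.44% of all genes). For landiolol against sham 5 were called in each sex (10.2% of all genes in males and 13.2% in females). A fit of the compared groups alone gave 1 call for CLP against sham in each sex. This was Pgam2 in males, against 5.61% of all genes, and Slc2a1 in females, against 2.27%. SAM gave 4 calls for CLP against sham in males (10.1% of all genes) and 4 in females (5.98%), 1 for landiolol against CLP in males (3.58%) and 4 for landiolol against sham in females (10.3%). With the Gapdh probe difference as a term, a choice made once the data had been seen, there were 5 calls in males (16% of all genes) and 2 in females (6.95%) for CLP against sham. For landiolol against sham there were 4 in females (9.57%). Without the 5 male arrays low for the upstream Gapdh probe, likewise chosen later, there were 6 for CLP against sham (10.7% of all genes). There was 1 for landiolol against CLP (2.05%) and 0 for landiolol against sham (1.92%). Normexp correction and the authors' table each gave 1 call for landiolol against CLP in males (Ppp1r3c), against 2.02% and 1.77% of all genes. Each also gave 1 for CLP against sham in females (Pgk1), against 4.2% and 3.96%. The authors' table gave 4 for landiolol against sham in females, against 5.82%. For landiolol against sham in males, 75th percentile scaling, no filter and the sample-code term each left 1 call, Hk2. Of all genes they called 4.24%, 1.92% and 3.05%. In females the row term left 0, against 0.0873% of all genes. The sample-code term gave 1 call, Slc2a3, for CLP against sham in females, against 4.39% of all genes. The cause of these changes was not tested. Leaving out 1 array gave 2 to 4 calls for CLP against sham in males and 0 to 1 in females (Pfkfb3, without female sham replicate 4 or female CLP replicate 5). It gave 0 to 2 for landiolol against CLP in males (Pfkl and Ppp1r3c without male CLP replicate 1, 1 without male CLP plus landiolol replicate 5) and 0 to 0 in females. It gave 1 to 3 for landiolol against sham in males (1 without male sham replicate 2, 3, 4 or 5 or male CLP plus landiolol replicate 1, 2 or 3) and 1 to 2 in females (1 without female sham replicate 3 or 5). Of all genes, the fits without 1 array called 5.39% to 9.55% in males and 2.45% to 3.56% in females for CLP against sham. For landiolol against CLP they called 0.455% to 4.29% in males and 0% to 0.486% in females. For landiolol against sham they called 2.76% to 4.53% in males and 3.76% to 5.57% in females. For differences between the sexes, 0 members were called under every alternative run. Of all genes, the authors' table called 0.0421% for CLP against sham and 0.0211% for landiolol against sham. For landiolol against sham, normexp correction called 0.0099%. Leaving out male sham replicate 1 or female sham replicate 4 gave 0.02% and 0.0149% there. The other alternatives called 0% of all genes. Of 140 alternative values of the called genes none changed direction, and 19 were no longer past the threshold: 12 for Pgam2 and 1 for Hk2 in males with landiolol against sham, 4 for Pgam2 and 1 for Hk2 in females, 1 for Gys1 and 0 for Pgam2 in male CLP. No paired analysis was possible because the replicate numbers follow the order of deposit. All members were above background and none was saturated.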
